A study of Rattus norvegicus with 25 samples.

Results

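The GADD45 genes (growth arrest and DNA damage inducible) form a family of 3 genes in the rat, Gadd45a, Gadd45b and Gadd45g. Their members were taken as all probe sets of the deposited table whose platform annotation gives exactly 1 of these symbols, which found 3 probe sets (10862867 for Gadd45a, 10900358 for Gadd45b and 10797527 for Gadd45g) for 3 of the 14506 genes with a symbol of their own. Their levels come from the striatum of male Lister Hooded rats at postnatal day 35 to 42, each rat on an Affymetrix rat gene 1.0st array of its own. The 7 Nic rats were born to dams that drank nicotine bitartrate in their water from 3 weeks before mating and in pregnancy. The 10 Con-Pf rats were born to pair-fed dams. In pregnancy too, these each day got the amount of food a matched Nic dam had eaten the day before. The 8 Con rats were born to dams with food and water freely available. The dams of all groups were housed singly, and all groups share the strain, the tissue and the age. Nic dams both took nicotine and ate less, so Nic against Con holds both exposures, whereas Nic against Con-Pf sets nicotine against a matched food intake that was imposed. The study reports that Nic dams also drank less fluid than the dams of either other group. Neither comparison therefore holds nicotine apart from lower fluid intake. The sources used here do not tie rats to litters, so each p-value measures the spread between these animals. The study lists fewer pair-fed dams than the 10 Con-Pf rats, so some Con-Pf rats were littermates. Rats of the other groups may be littermates too.

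GADD45 proteins are small acidic proteins of the nucleus with no known enzymatic activity. They act by binding others: the kinase Map3k4, which they switch on and which leads to the stress kinases p38 and JNK, the replication clamp Pcna, the cell cycle inhibitor Cdkn1a, and the mitotic kinase Cdk1 with cyclin B1. They are also known to guide excision repair to methylated DNA. In the mouse hippocampus Gadd45b is induced by neuronal activity and is needed for the loss of methylation at promoters of Bdnf and Fgf1 that follows. Gadd45a is a classic target of p53, and each of the 3 genes is switched on quickly by stress in many cell types.

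The promoters of the 3 genes are shown because the levels of their transcripts are compared with each other here. Each window runs from 250 bases before to 50 bases after the start of transcription (RefSeq, build GRCr8, all on the minus strand): chr4:97486750-97487049 for Gadd45a, chr7:9430669-9430968 for Gadd45b and chr17:13530302-13530601 for Gadd45g. Sequences are written 5′ to 3′ in the direction of the gene, and capitals mark the matches to any of 9 short motifs described after them.
Gadd45a promoter: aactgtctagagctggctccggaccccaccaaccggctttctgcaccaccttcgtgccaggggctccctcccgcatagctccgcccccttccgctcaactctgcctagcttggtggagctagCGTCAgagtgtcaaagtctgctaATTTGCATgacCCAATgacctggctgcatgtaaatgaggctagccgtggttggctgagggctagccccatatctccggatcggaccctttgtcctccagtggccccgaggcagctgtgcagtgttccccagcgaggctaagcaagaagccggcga
Gadd45b promoter: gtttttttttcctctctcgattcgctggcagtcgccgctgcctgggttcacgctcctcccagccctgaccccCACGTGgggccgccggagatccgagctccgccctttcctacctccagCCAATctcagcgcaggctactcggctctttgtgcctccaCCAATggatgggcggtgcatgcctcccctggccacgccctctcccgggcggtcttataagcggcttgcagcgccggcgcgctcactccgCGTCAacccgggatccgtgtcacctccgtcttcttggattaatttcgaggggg
Gadd45g promoter: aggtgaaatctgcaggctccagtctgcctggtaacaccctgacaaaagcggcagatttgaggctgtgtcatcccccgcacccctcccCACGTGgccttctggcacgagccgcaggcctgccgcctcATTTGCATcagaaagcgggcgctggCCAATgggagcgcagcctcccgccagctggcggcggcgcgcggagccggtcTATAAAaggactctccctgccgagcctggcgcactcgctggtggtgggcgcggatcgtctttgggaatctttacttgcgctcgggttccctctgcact

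The octamer ATTTGCAT, a site read by POU factors, stood 105 bases before the start in Gadd45a and 124 bases before it in Gadd45g, and had 0 matches in the window of Gadd45b. It is found in 1.78% of the 33469 rat promoter windows of this length. The CCAAT box (CCAAT, 37.5% of windows) had 1 match in Gadd45a, 2 in Gadd45b and 1 in Gadd45g. The TATA box TATAAA (14.2%) was matched in Gadd45g alone of the 3, and the E-box CACGTG (6.42%) in Gadd45b and Gadd45g. The core TGACG of the cAMP response element (21.2%) was matched once each in Gadd45a and Gadd45b, where the capitals show the other strand. The full element TGACGTCA (1.83%, which contains that core), the AP-1 site TGANTCA (7.33%), the EGR site GCGNGGGCG (4.98%) and the NF-kappaB site GGGNNTTCC (5.92%) had 0 matches in the 3 windows. Both strands were searched for every motif. The windows held 14 CpG in Gadd45a, 27 in Gadd45b and 24 in Gadd45g, against a median of 7 over all windows. These matches describe the letters of the windows and not binding.

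The arrays were alike, with Pearson correlations of 0.967 to 0.997 between any pair over the 14607 probe sets tested. The study kept a sample with a low RNA integrity number, which it held to be a likely fault of chip loading. The sources used here do not say which rat this was, or whether its array is among the 25. Con 3 and Con 5 stood apart on the first principal component, with scores of -25.2 and -33.9 against -11.6 to 9.6 for the other 23 arrays. Con-Pf 9 and Con-Pf 10 carry a Con-Pf title beside the description of a control. They were kept as Con-Pf, the grouping with which fold changes printed by the study were matched (see the processing section). Of 12 listed markers of striatal projection neurons 10 were measured. Mean log2 levels in Nic, Con-Pf and Con were 12.88, 12.88 and 12.84 for Ppp1r1b and 12.52, 12.51 and 12.49 for Drd2. In Con-Pf against Con Pde10a had a log2 fold change of -0.14 and Tac1 of 0.08 (limma adjusted p = 0.141 and 0.221). Of the 10, 0 were called in any comparison.

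All 3 GADD45 genes passed the filter on low values, set at a mean of 6.972 on the log2 scale. A gene of a list is called measured here where its probe set passed this filter, so some genes not measured were on the array. Levels are log2 values from RMA, the authors' background correction, quantile normalization and summary per probe set, so that a difference of 1 is a doubling. Differences were taken from 1 limma model over the 3 groups, and a probe set was called at a Benjamini-Hochberg adjusted p under 0.05 over all 14607.

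Of the 3 genes 2 rose in Con-Pf against Con, Gadd45a by 1.32 and Gadd45g by 1.24 times, and Gadd45b did not pass the test (1.00 times). In Nic against Con, 0 of the 3 passed. Between Nic and Con-Pf, 0 of the 3 passed by limma, although the Gadd45g level was lower in 6 of the 7 Nic rats than in every Con-Pf rat. Over all probe sets tested, the percentage called was 1.26% in Con-Pf against Con, 0% in Nic against Con and 0.185% in Nic against Con-Pf. The tissue was measured in bulk, so fewer cells of a type and less RNA per cell cannot be told apart.

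**Figure D1:**
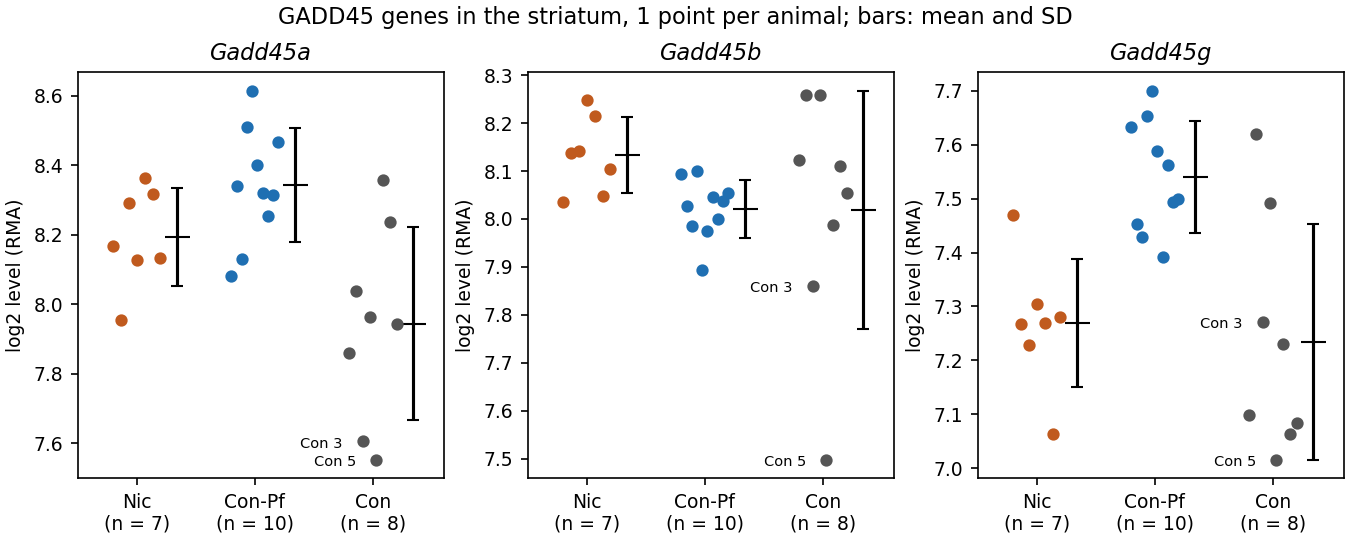
Log2 level of each GADD45 gene (y axis, RMA) in Nic, Con-Pf and Con (x axis), 1 point per rat, with the group mean and SD as black bars; Con 3 and Con 5 are named. Con-Pf stands highest for Gadd45a and Gadd45g, Con has the widest spread for each gene, and Con 5 is the lowest of the 25 rats for each.

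Gadd45a, the p53 target of the family, had log2 levels of 7.96 to 8.37 in Nic (median 8.17), 8.08 to 8.62 in Con-Pf (median 8.33) and 7.55 to 8.36 in Con (median 7.95). All 10 Con-Pf rats lay above the Con median, 4 of them lay above every Con rat, and 6 of the 8 Con rats lay below every Con-Pf rat. The group means were 8.19 ± 0.14 in Nic (SD, n = 7), 8.34 ± 0.16 in Con-Pf (n = 10) and 7.95 ± 0.28 in Con (n = 8). The log2 fold change was 0.40 in Con-Pf against Con (standard error 0.09, 95% interval 0.21 to 0.58, limma adjusted p = 0.0219). Con rats overlapped Con-Pf through Con 6 and Con 7, at 8.36 and 8.24. In Nic against Con the log2 fold change was 0.25 (standard error 0.10, adjusted p = 0.273), with all 7 Nic rats above the Con median. Nic and Con-Pf, neighbours in the order of levels, did not differ beyond their spread (log2 fold change -0.15, 95% interval -0.34 to 0.04, adjusted p = 0.999).

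Gadd45g, a restraint on growth that is induced by stress and cytokines, had log2 levels of 7.06 to 7.47 in Nic (median 7.27), 7.39 to 7.70 in Con-Pf (median 7.53) and 7.02 to 7.62 in Con (median 7.17). The Con rats fell in a low set and 2 higher ones, Con 2 at 7.62 and Con 4 at 7.49. The means were 7.27 ± 0.12 in Nic (SD, n = 7), 7.54 ± 0.10 in Con-Pf (n = 10) and 7.23 ± 0.22 in Con (n = 8). Against Con, the Con-Pf rats rose by a log2 fold change of 0.31 (SE 0.07, 95% interval 0.16 to 0.45, limma adjusted p = 0.0231), and all 10 Con-Pf rats lay above the Con median. Nic against Con gave 0.035 (SE 0.08, adjusted p = 0.821), and these neighbours at the low end did not differ beyond their spread.

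In Nic against Con-Pf the Gadd45g level was 0.829 times as high, a log2 fold change of -0.27 (standard error 0.07, 95% interval -0.42 to -0.12). It did not pass over all probe sets (unadjusted p = 0.000877, limma adjusted p = 0.221), and by unadjusted p it stood at place 58 of 14607. Nic 1, at 7.47, was the 1 Nic rat inside the Con-Pf range. With limma fitted on these 2 groups alone, which leaves out the wider spread of Con, the adjusted p was 0.0395, and with array weights it was 0.0377. Over the single rats left out, it ran from 0.0791 to 0.598.

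Gadd45b, the member tied to demethylation after activity in the mouse hippocampus, had log2 levels of 8.04 to 8.25 in Nic (median 8.14), 7.89 to 8.10 in Con-Pf (median 8.03) and 7.50 to 8.26 in Con (median 8.08). Con-Pf lay within the range of Con, whereas 5 of the 7 Nic rats lay above every Con-Pf rat. The means were 8.13 ± 0.08 in Nic (SD, n = 7), 8.02 ± 0.06 in Con-Pf (n = 10) and 8.02 ± 0.25 in Con (n = 8), so the order differed from that of the other two. Con-Pf against Con gave 0.002 on the log2 scale (SE 0.07, 95% interval -0.14 to 0.14, limma adjusted p = 0.988). Nic had 0.11 against Con (adjusted p = 0.419) and 0.11 against Con-Pf (adjusted p = 0.999). The methods' t-test, which uses the variances of the 2 groups alone, gave an unadjusted p of 0.00996 for Nic against Con-Pf (adjusted 0.554). Con 5 (7.50) and Con 3 (7.86) pulled the Con mean down, and without them it was 8.13 ± 0.11 (SD, n = 6), which turned the sign of Con-Pf against Con (log2 fold change -0.11, adjusted p = 0.482).

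**Figure D2:**
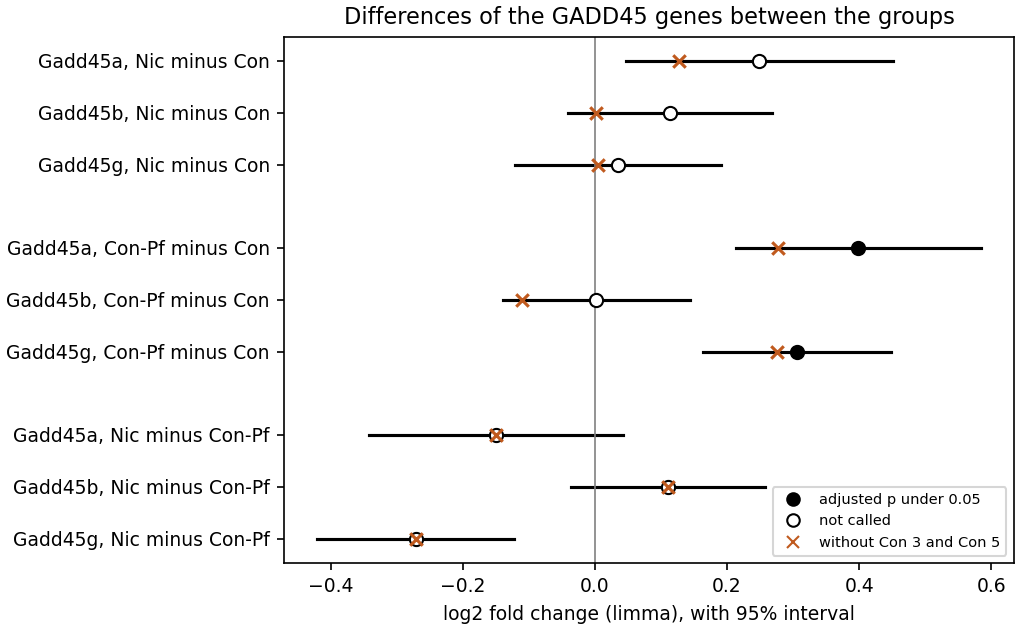
Log2 fold change (x axis, limma) of the GADD45 genes in Nic minus Con, Con-Pf minus Con and Nic minus Con-Pf, with 95% intervals; filled points have an adjusted p under 0.05 and crosses give the value without Con 3 and Con 5. Gadd45a (0.40) and Gadd45g (0.31) in Con-Pf minus Con are the 2 called, and without these rats they stand at 0.28 and 0.28, not called.

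The 2 calls depended on which Con rats were included. Without Con 3 and Con 5 the log2 fold change in Con-Pf against Con was 0.28 for Gadd45a (limma adjusted p = 0.194) and 0.28 for Gadd45g (0.126), and 85 probe sets, 0.582%, were called in place of 184. The Gadd45a call was lost without Con 1, Con 3 or Con 5 (adjusted p = 0.0530, 0.0681 and 0.0610), and that of Gadd45g without Con 1 or Con 5 (0.0624 and 0.0658). With Con-Pf 9 and Con-Pf 10 counted as Con, as their descriptions have it, the values were 0.30 (0.314) and 0.26 (0.245), and 27 probe sets were called. Neither was called by the methods' t-test after Benjamini-Hochberg adjustment (unadjusted p = 0.00441 and 0.00487, adjusted p = 0.230 and 0.236). None of the 3 genes reached the study's fold threshold of 0.5 on the log2 scale in any comparison. In Nic against Con, where limma called 0 of 14607 probe sets, 2370 had an unadjusted p under 0.05, 1 of the 3 members among them (Gadd45a, p = 0.0176), and 1579 did by the methods' t-test.

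Whether the members changed by different amounts was tested on the difference of 2 genes within each array. A shift of an array that is equal for both genes drops out of it, and an unequal shift does not. After removal of group means, the first principal component had an r of 0.75 in size with Gadd45a, 0.69 with Gadd45b and 0.15 with Gadd45g. Its part in these differences was not tested. The log2 level of Gadd45a minus that of Gadd45b was 0.32 ± 0.19 in Con-Pf (SD, n = 10) and -0.07 ± 0.24 in Con (SD, n = 8). The change in Con-Pf against Con was thus 0.40 larger for Gadd45a than for Gadd45b (exact permutation test, two-sided, p = 0.00178, adjusted over 9 tests 0.00535). Gadd45b minus Gadd45g was 0.48 ± 0.13 in Con-Pf and 0.78 ± 0.21 in Con, a change 0.30 smaller for Gadd45b (exact permutation p = 0.00101, adjusted 0.00452). Gadd45a and Gadd45g were not told apart in this comparison (difference of change 0.09, exact permutation p = 0.427).

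Without Con 3 and Con 5 both differences from Gadd45b remained, at 0.39 for Gadd45a against Gadd45b (exact permutation, adjusted p = 0.0135) and -0.39 for Gadd45b against Gadd45g (adjusted p = 0.00112). They also passed with any 1 rat left out. With Con-Pf 9 and Con-Pf 10 counted as Con, the difference between Gadd45a and Gadd45b was 0.31 and its call was lost (exact permutation, adjusted p = 0.0510). The members differed between Nic and Con-Pf as well: Gadd45b minus Gadd45g was 0.86 ± 0.14 in Nic (SD, n = 7) and 0.48 ± 0.13 in Con-Pf (SD, n = 10), a change 0.38 larger for Gadd45b (exact permutation p = 0.000154, adjusted 0.00139). In this comparison Gadd45a minus Gadd45b was 0.06 ± 0.16 in Nic and 0.32 ± 0.19 in Con-Pf (difference of change -0.26, exact permutation p = 0.00905, adjusted 0.0204), and this call was lost without Nic 2 or Nic 4 (adjusted p = 0.0618 and 0.0542). It was also lost with Con-Pf 9 and Con-Pf 10, whose labels disagree, left out or counted as Con (adjusted p = 0.0510 each). In Nic against Con 0 of the 3 pairs passed (adjusted p = 0.284 to 0.427 by the exact permutation test, with 0 of 3 also at an unadjusted p under 0.05). The comparisons with Con-Pf share its 10 rats, so these are not separate observations of Con-Pf.

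**Figure D3:**
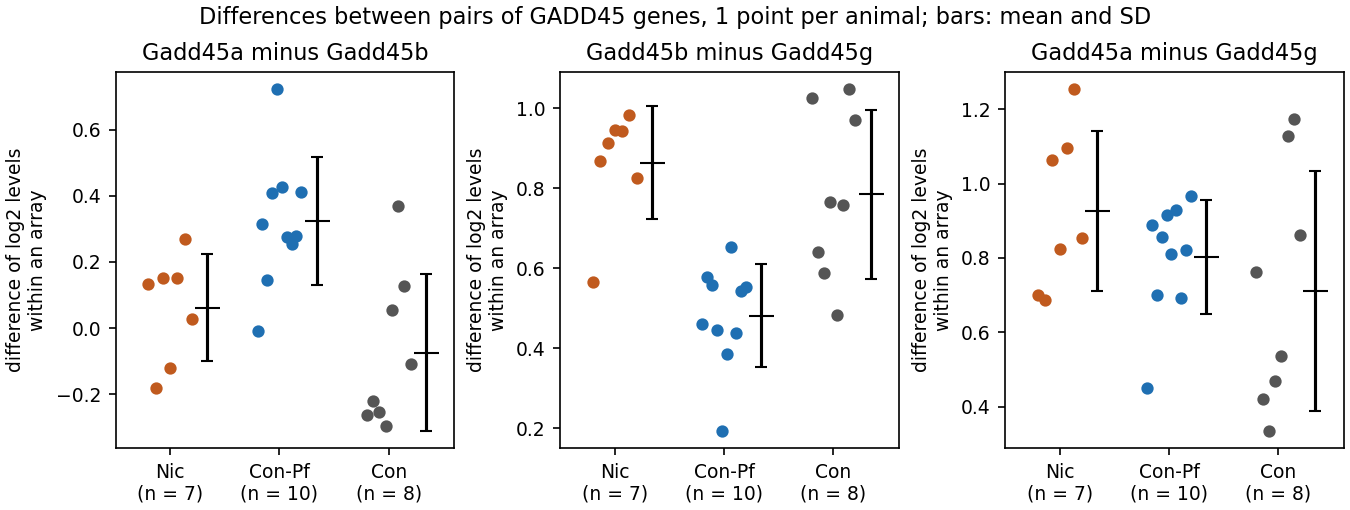
Difference of the log2 levels of 2 GADD45 genes within an array (y axis) in Nic, Con-Pf and Con (x axis), 1 point per rat, with the group mean and SD. Gadd45a minus Gadd45b is highest in Con-Pf (0.32 against 0.06 in Nic and -0.07 in Con), and Gadd45b minus Gadd45g is lowest there (0.48, against 0.86 in Nic and 0.78 in Con).

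Within groups the 3 genes were loosely related. After each group's mean was taken off, Pearson's r over the 25 rats was 0.38 for Gadd45a with Gadd45b (Spearman's rho 0.22), 0.15 for Gadd45a with Gadd45g (0.06) and 0.43 for Gadd45b with Gadd45g (0.13). Without the 2 rats farthest from the middle these r values were 0.19, 0.03 and 0.06. Within single groups they were -0.01, -0.37 and 0.03 in Nic, -0.34, 0.41 and -0.17 in Con-Pf, and 0.60, 0.17 and 0.60 in Con, where Con 5 was lowest for every member. The spread between rats of 1 group was above that of most probe sets: the residual SD was 0.203 for Gadd45a, larger than that of 89.9% of the probe sets tested, and 0.151 and 0.153 for Gadd45b and Gadd45g (71.4% and 72.4%), where the median was 0.121.

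The genes most like each member in this spread were found in the same way, by r over the 25 rats after removal of group means. This is a description, as the genes of 1 array share its tissue piece and RNA quality. For Gadd45a they were Timm17a, a subunit of the mitochondrial import channel (r = 0.91, rho = 0.93), Phax (0.89, rho = 0.81), Tada2a (0.88, rho = 0.81), Tbrg1 (0.88, rho = 0.86) and Eef1d (0.88, rho = 0.82). For Gadd45b they were the proteasome gene Adrm1 (r = 0.86, rho = 0.78), Usf2 (0.85, rho = 0.68), Ctxn1, Plekhj1 and Pard6b (each 0.83). For Gadd45g the values were lower, with Slc25a4 at 0.68 (rho = 0.51), Hnrnpd and Cdc42ep3 at 0.67, and Tmem123 and Tp53rkb at 0.66. Of the 9605 other annotated probe sets, 546 reached an r of 0.7 with Gadd45a, 107 with Gadd45b and 0 with Gadd45g. The first principal component, on which Con 3 and Con 5 stood apart, had an r of 0.75 in size with Gadd45a, 0.69 with Gadd45b and 0.15 with Gadd45g, and without the 2 farthest rats 0.61, 0.27 and 0.04. Of the genes most like Gadd45g, Cdc42ep3, an effector of the small GTPase Cdc42, rose in Con-Pf against Con by 0.31 (limma adjusted p = 0.00396).

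Markers of tissue next to the striatum varied between rats. The 2 choroid plexus genes measured of 6 listed, Ttr and Folr1, had a mean deviation from their average of -1.32 to 1.28 in Nic, -1.16 to 3.63 in Con-Pf and -1.27 to 3.10 in Con on the log2 scale, the highest being Con-Pf 4 and Con 2. Con 2 was also the highest Con rat for Gadd45g, and without it the log2 fold change of Gadd45g in Con-Pf against Con was 0.36 (limma adjusted p = 0.00156). Without Con-Pf 4 it was 0.29 (0.0470). For Gadd45a these values were 0.41 (0.0279) and 0.38 (0.0463). The median log2 fold change of the 2 choroid plexus genes was 0.38 in Con-Pf against Con, and their group-centred r was 0.38 with Gadd45a (rho 0.54), 0.39 with Gadd45b (rho 0.41) and 0.39 with Gadd45g (rho 0.09). The 4 markers of cortical neurons measured of 9 listed, among them Slc17a7, lay at -0.41 to 1.22 in Nic, -0.40 to 0.20 in Con-Pf and -0.26 to 0.82 in Con. All 4 had higher means in Nic than in Con-Pf, the comparison in which the Gadd45g level was lower, with a median log2 fold change of 0.39, Slc17a7 having 1.18 (limma unadjusted p = 0.00423, adjusted 0.576) and Cck 0.53 (0.00467, adjusted 0.609). Their group-centred r was -0.44 with Gadd45a, -0.41 with Gadd45b and -0.24 with Gadd45g, and without the 2 farthest rats -0.16, -0.11 and -0.14. Astrocyte markers moved against Gadd45a and Gadd45b in the same measure (r = -0.55 and -0.48), with a median log2 fold change over the 7 of -0.10 in Con-Pf against Con, and endothelial markers against Gadd45b (-0.59). Microglia markers had an r of 0.47 with Gadd45a (rho 0.18). The part of these cell types in the results was not tested. Of the oligodendrocyte, astrocyte, microglia and endothelial markers measured (6, 7, 7 and 6), 0 were called by limma in any comparison.

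Of 15 listed binding partners and kinases downstream of the GADD45 proteins, 13 were measured. In Con-Pf against Con 1 rose and 0 fell, where 1.26% of all probe sets tested were called in either direction. The median log2 fold change was -0.04, against 0.02 over all probe sets. The gene that rose was Cdkn1a, the inhibitor p21 that GADD45 proteins bind, with 8.35 ± 0.13 in Nic (SD, n = 7), 8.45 ± 0.14 in Con-Pf (n = 10) and 8.10 ± 0.23 in Con (n = 8), a log2 fold change of 0.345 in Con-Pf against Con (standard error 0.08, limma adjusted p = 0.0188). Next came Pcna with 0.19, Mapk11 with -0.12 and Mapk8, a JNK gene, with -0.10, which did not pass (adjusted p = 0.157, 0.179 and 0.245). Map3k4, the kinase that GADD45 proteins switch on, had 0.01 (standard error 0.06). In Nic against Con 0 of the 13 passed, Pcna having 0.26 and Cdkn1a 0.24 (adjusted p = 0.268 each), and in Nic against Con-Pf 0 passed.

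Of 22 p53 targets listed, 17 were measured. Cdkn1a, which is also in the list of partners, was the 1 gene that rose in Con-Pf against Con, with 0 falling. Over all probe sets tested 1.26% were called there. The median log2 fold change was 0.02. Tp53inp1 had 0.16 (limma adjusted p = 0.0534), Rrm2b -0.37 (0.102) and Zmat3 -0.13 (0.165), while Mdm2, the ubiquitin ligase of p53, had 0.035 and Ccng1 -0.04. In the other 2 comparisons 0 of the 17 passed.

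Of 14 genes of growth arrest and of the unfolded protein response, which share the names Gadd or Gas or are induced beside them, 8 were measured. In Con-Pf against Con, 1 rose and 0 fell, with a median log2 fold change of 0.035, where 1.26% of all probe sets tested were called. The gene that rose was Ppp1r15a (Gadd34), which recruits a phosphatase to restore translation after stress and is no homologue of the family, at 7.53 ± 0.13 in Nic (SD, n = 7), 7.76 ± 0.14 in Con-Pf (n = 10) and 7.52 ± 0.10 in Con (n = 8), a log2 fold change of 0.24 (standard error 0.06, limma adjusted p = 0.0345). Atf4 had 0.14, Ddit3 (Gadd153) 0.175 and Ddit4 -0.18, with adjusted p = 0.0895, 0.127 and 0.119. The study lists Ppp1r15a, Ddit3 and Atf4 among the stress genes behind its enrichment on these same arrays. Their values are thus no independent result. For Ppp1r15a, Nic against Con-Pf gave -0.23 (adjusted p = 0.197). Without Con 3 and Con 5 neither Cdkn1a nor Ppp1r15a was called.

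Of 21 listed enzymes of demethylation and excision repair with which GADD45 proteins work, 13 were annotated on the array. The filter on low values left 8 as measured, and 0 of them passed in any comparison by limma. Over all probe sets tested at most 1.26% were called in a comparison. Their median log2 fold change was 0.07 in Nic against Con, 0.05 in Con-Pf against Con and 0.005 in Nic against Con-Pf. In Con-Pf against Con the smallest p values were those of Ercc1 (log2 fold change 0.18, adjusted p = 0.131) and Xrcc1 (0.105, 0.180). Next came Dnmt3a (-0.11, 0.362) and Apex1 (0.09, 0.393). Of the 8, Ercc1 and Xrcc1 had a limma unadjusted p under 0.05, as did 22% of all probe sets tested. Tdg, the glycosylase that removes oxidised methylcytosine, had 0.02. In Nic against Con Apex1 had 0.15 (limma unadjusted p = 0.0374), where 16.2% of all probe sets tested had an unadjusted p under 0.05. Over the 25 rats, after group means were removed, the mean of the 8 genes had an r of 0.56 with Gadd45a, 0.12 with Gadd45b and -0.45 with Gadd45g (0.58, 0.20 and -0.48 without the 2 farthest rats). The 25 points share arrays and normalization with the members.

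Of 18 transcription factors known to act on GADD45 genes, 15 were measured. In Con-Pf against Con 1 rose, 1 fell and 13 did not pass, where 1.26% of all probe sets tested were called. Egr1 rose by 0.55 (limma adjusted p = 4.66e-07) and Smad3, which carries TGF-beta signals, fell by 0.18 (0.0441), while Npas4 (1.165, 0.0534) and Atf4 (0.14, 0.0895) came next and Foxo3 had -0.14. The study itself called Egr1 and Npas4 in this comparison on these same arrays, so their values are no independent result. Between Nic and Con-Pf, Egr1 fell by 0.35 (adjusted p = 0.00215) and 0 rose, where 0.185% of all probe sets tested were called. Without Con 3 and Con 5 Egr1 was still called in both, and Smad3 was not. The activity-induced genes moved more: of 18 listed 14 were measured, 12 rose in Con-Pf against Con with a median log2 fold change of 0.79 over the 14, and in Nic against Con-Pf 9 fell with a median of -0.65. The counts were 12 and 9 without Con 3 and Con 5 too. Among them were Nr4a1 (1.44 in Con-Pf against Con) and Nr4a3 (1.11). Most of the 14 are genes that the study itself called on these same arrays. Their counts and medians were thus known in advance and are no independent result. Over the 25 rats, after group means were removed, the mean of the 14 genes had an r of 0.24 with Gadd45a, -0.08 with Gadd45b and 0.39 with Gadd45g (rho 0.26, -0.21 and 0.41). For the other 4 lists r lay between -0.36 and 0.22.

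**Figure D4:**
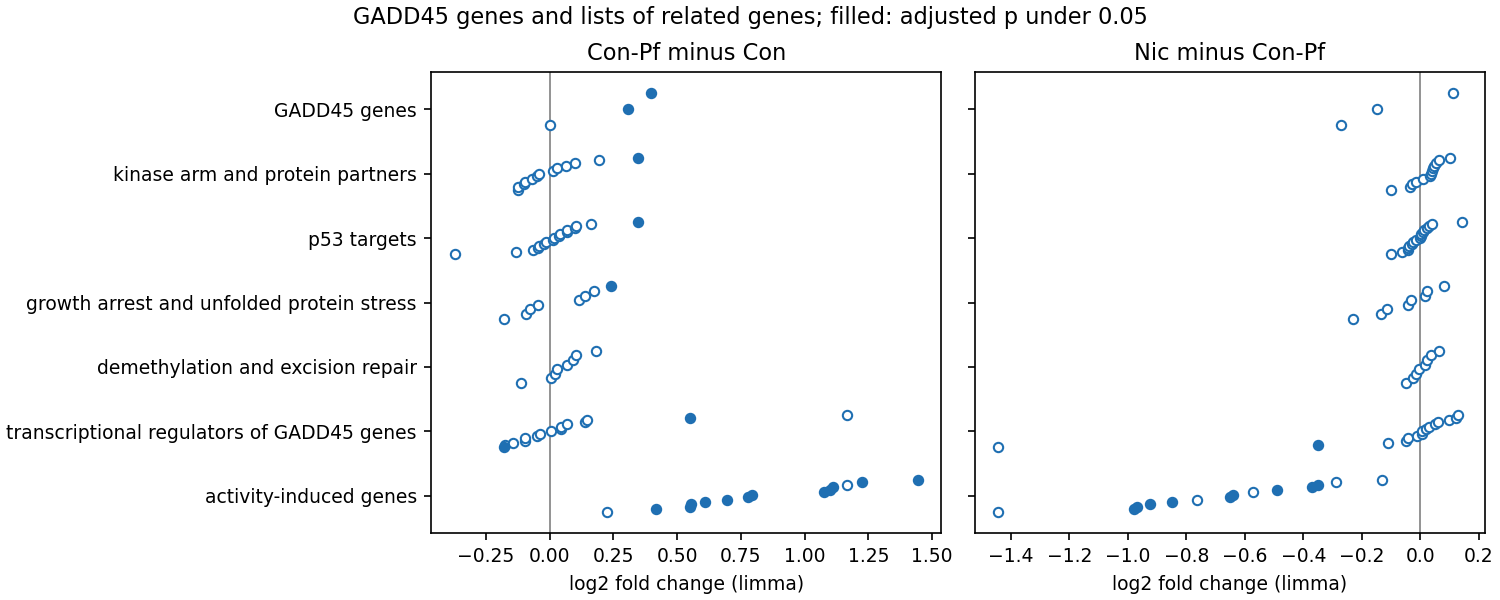
Log2 fold change (x axis, limma) of the GADD45 genes and of the measured genes of 6 related lists (y axis), in Con-Pf minus Con at left and Nic minus Con-Pf at right, with x axes of different range; filled points have an adjusted p under 0.05. In Con-Pf minus Con, Gadd45a (0.40) and Gadd45g (0.31) lie below the median of the activity-induced genes (0.79), of which Fgf1 (0.225, not called) lies below both and Klf4 (0.42) beside Gadd45a. Most of the activity-induced genes are among those the study called on these same arrays.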

How the data were processed

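The table holds striatal RNA of 25 rats, 1 array per rat, which remained after the authors removed 2 Con arrays and 1 Nic array. The authors made the deposited log2 values with RMA (affy in the methods, Affymetrix Expression Console 1.1 in the submitters' processing notes). Quantile normalization by RMA forces the probe signals of the arrays to 1 distribution before they are summarized. The medians of the deposited probe set values still ran from 6.954 in Con 5 to 7.019 in Con-Pf 10. Single-probe signal over background was not analysed here. Groups follow the array titles, which give 8 Con and 10 Con-Pf arrays. The methods give 10 rats each for Con and Con-Pf before the 2 Con arrays were removed, as the titles have it, and in another place 10 Con and 8 Con-Pf arrays. Grouped by the titles, Con-Pf against Con gave log2 fold changes of 1.44 for Nr4a1, 1.11 for Nr4a3, 1.10 for Arc and 0.79 for Junb. The study prints the same values for these genes.

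Of 29214 probe sets, the 14607 with a mean at or above the median (quantile 0.5) entered 1 model over 3 groups (limma 3.58.1, R 4.3.3, data.table version 1.17.8), after a test on simulated data. Genes of a list were represented by their brightest probe set with 1 symbol, updated through Entrez IDs. Differences between members were tested with exact permutations. Promoters came from RefSeq (GRCr8), and 3 of 3 members matched. Proteins were not analysed here. Figures used Python 3.11.15 and matplotlib 3.10.9.

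Named genes were the 3 members, the 5 genes most like each, and list members called or with the smallest p, with a few examples added after their values were seen. Members, lists and tests were chosen with earlier results of these data known, and the study names Gadd45a and Gadd45g for these arrays, so the choice of members is not independent of them. Alternatives were other tests, filters, normalizations and treatments of arrays, each array left out in turn, and a replicate block. For differences between members they were added after seeing the data.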

Additional observations from a re-analysis of the deposited data

How the results depend on the processing

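In Con-Pf against Con, Gadd45a and Gadd45g kept their direction under all alternatives run, and kept their calls with limma's trend and robust setting, array weights, a further quantile normalization and median centring. For Gadd45a the log2 fold change of 0.399 lost its call with the methods' t-test (adjusted p = 0.230), a t-test of pooled variance (0.113), limma on the 2 groups (0.0631) and no filter (0.0563), was 0.387 without Con-Pf 9 and 10 (0.0647), 0.298 with them moved to Con (0.314), 0.277 without Con 3 and Con 5 (0.194), and ran from 0.343 to 0.458 with 1 array left out (adjusted p = 0.00351 to 0.0681). For Gadd45g the 0.306 lost its call with the methods' t-test (adjusted p = 0.236), pooled variance (0.0990), limma on the 2 groups (0.0623) and no filter (0.0615), was 0.264 with Con-Pf 9 and 10 moved to Con (0.245), was 0.276 without Con 3 and Con 5 (0.126), and ran from 0.275 to 0.361 with 1 array left out (0.00156 to 0.0658).

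For Gadd45b in Con-Pf against Con (0.002) the sign turned with array weights (-0.069), a further quantile normalization (-0.018), median centring (-0.007), Con-Pf 9 and 10 left out (-0.004) or moved to Con (-0.009), and without Con 3 and Con 5 (-0.111), and the range with 1 array left out was -0.072 to 0.037. With Con-Pf 9 and 10 counted as Con, Gadd45g in Nic against Con was -0.018. In Nic against Con-Pf Gadd45g had -0.271 and an adjusted p of 0.0395 with limma on the 2 groups, and -0.269 and 0.0377 with array weights. The other 10 of 12 alternatives did not call it (adjusted p up to 0.631).

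The difference of change between Gadd45a and Gadd45b was 0.307 in Con-Pf against Con with Con-Pf 9 and 10 counted as Con (exact permutation, adjusted p = 0.0510). In Nic against Con-Pf it was -0.255 with these arrays left out or counted as Con (adjusted p = 0.0510) and -0.298 to -0.216 with 1 array left out. That between Gadd45b and Gadd45g in Nic against Con was -0.004 without Con 3 and Con 5.

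With the replicate block, Con-Pf against Con gave 0.387 for Gadd45a (limma adjusted p = 0.0867), 0.317 for Gadd45g (0.0748) and -0.004 for Gadd45b, and 96 calls in place of 184. Deviations of same-numbered arrays had an r of -0.362 to 0.315 between Nic and Con (above 0.1 in 2 of 7 pairs), -0.076 to 0.179 between Con-Pf and Con (4 of 8) and -0.208 to 0.341 between Nic and Con-Pf (4 of 7). Not every pair was above 0.1 and the labels give no shared litter or day, so the numbers were not taken as pairing. A filter at the 0.75 quantile left out all 3 genes and gives no value. Over all probe sets, calls in Con-Pf against Con numbered 66 with the methods' t-test, 84 with pooled variance, 99 with limma on the 2 groups, 96 with no filter, 85 without Con 3 and Con 5, 116 without Con-Pf 9 and 10 and 27 with these as Con. In Nic against Con-Pf they were 55 with array weights, 6 with the methods' t-test, 8 with pooled variance and 5 with Con-Pf 9 and 10 as Con, in place of 27. The causes of these shifts were not tested.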
